A study of Mus musculus with 24 samples.

Results

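Histone acetyltransferases other than KAT6A, the subunits that place them, the histone deacetylases, the sirtuins and the BET readers were followed in 24 RNA-seq libraries of embryonic mouse pharyngeal arches. The 39 genes were listed by name, by a rule that reads no expression value, although earlier results of these data were known. All 39 were found among the 26611 gene identifiers of the count table and passed the filter on low counts. The libraries were made from polyadenylated RNA of pharyngeal arches 1 and 2, the outgrowths that form the jaws and parts of the ear, taken from female C57BL/6 embryos at E10.5, with 4 biological replicates of each of 6 genotypes. The groups were Kat6a homozygous knockout (Kat6a -/-, Dlx5 +/+), Kat6a and Dlx5 double heterozygous knockout (Kat6a +/-, Dlx5 +/-), Dlx5 homozygous knockout (Kat6a +/+, Dlx5 -/-), Kat6a heterozygous knockout (Kat6a +/-, Dlx5 +/+), Dlx5 heterozygous knockout (Kat6a +/+, Dlx5 +/-) and wild type (both genes +/+). The protein of Kat6a (Moz) acetylates histones, and that of Dlx5 is a homeobox factor which patterns the mandible. According to its title, the study asked what losing either gene or both does to craniofacial development. The comparisons below ask whether genes for the rest of the acetylation machinery had other transcript levels in these mutants.

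Acetyltransferases transfer an acetyl group from acetyl-CoA to lysines of histones and other proteins, deacetylases remove it, and bromodomain proteins bind the acetylated lysine and carry it on to the transcription machinery. The classical deacetylases use a zinc ion, whereas sirtuins consume NAD. In humans, loss of a copy of the acetyltransferase gene CREBBP or EP300 changes facial form, and class I and class IIa deacetylases act in neural crest and skeletal cells of the head.

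No transcript of the 39 genes passed the test in any comparison with wild type. In edgeR's quasi-likelihood test, with a Benjamini-Hochberg adjusted p under 0.05 as the threshold, 0 of 39 genes were called in Kat6a homozygous against wild type libraries, where 1.53% of the 14506 genes tested were called. The count was also 0 of 39 in double heterozygous libraries, where 0.448% of all genes were called, and 0 of 39 in Dlx5 homozygous libraries, where 0.0551% were called. In Kat6a heterozygous and in Dlx5 heterozygous libraries 0 of 39 were called and 0% of all genes were. The 2 genes that came nearest were Hdac5, lower in Kat6a homozygous libraries with an adjusted p of 0.062, and Ncoa1, higher in double heterozygous libraries with an adjusted p of 0.0701, both in edgeR.

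The regions just before the RefSeq starts of these 2 genes are shown because they are the 2 members nearest the threshold. Each is the 250 bases before the start on GRCm38.p6, read 5′ to 3′ on the gene's own strand, with every CpG in capitals. The Hdac5 window lies at chr11:102230173-102230422 on the minus strand and the Ncoa1 window at chr12:4477183-4477432 on the minus strand.
Hdac5: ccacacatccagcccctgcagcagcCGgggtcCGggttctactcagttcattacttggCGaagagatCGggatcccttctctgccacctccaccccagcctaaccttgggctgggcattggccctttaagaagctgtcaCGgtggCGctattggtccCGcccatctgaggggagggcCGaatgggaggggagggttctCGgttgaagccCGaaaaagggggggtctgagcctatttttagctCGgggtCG
Ncoa1: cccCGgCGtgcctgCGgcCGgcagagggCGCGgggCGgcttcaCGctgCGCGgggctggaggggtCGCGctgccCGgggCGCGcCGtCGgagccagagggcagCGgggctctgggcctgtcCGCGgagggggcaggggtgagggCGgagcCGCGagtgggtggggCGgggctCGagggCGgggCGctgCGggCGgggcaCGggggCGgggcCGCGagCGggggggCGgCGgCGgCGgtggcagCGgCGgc
The Ncoa1 window held 40 CpG dinucleotides and was 85.6% G or C, and the Hdac5 window held 12 and was 60.8% G or C. RefSeq windows were matched for 32 of the 39 genes (48 windows), and no window was matched for Hdac1, Hdac3, Hdac10, Elp3, Epc1, Jade2 and Ncoa3. At least 10 CpG were found in 37 of the 48 windows (77.1%), against 37.8% of 32851 windows of all genes, and the median was 17 CpG against 6. The cyclic AMP response element TGACGTCA, a palindrome that reads alike on both strands, was in 0 of the 48 windows and in 1.55% of all windows. The windows of all genes include genes that did not pass the filter on low counts, whereas every member passed it. The CpG counts are thus not set against genes of like expression, and 48 windows are too few to tell 0 from 1.55%. These letters describe the windows only and say nothing of binding.

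Library totals ran from 10406452 to 28198111 counts, and the deepest library, wild type replicate 1, was followed by one of 16710291 counts. The batches of the labels are 2 mouse facilities. Batch 2 held every Kat6a homozygous and every wild type library, batch 1 every Dlx5 homozygous one, and each of the 3 other groups drew on both. The Dlx5 homozygous comparison therefore rests on the fitted batch term. Wild type replicate 4 stood apart. In that library genes in the top quartile of length deviated from those in the bottom quartile by -0.42 on the log2 scale, against -0.13 to 0.21 in the other 23 libraries. Kat6a counts were not lower in libraries labelled Kat6a homozygous (228 ± 15 CPM, counts relative to the TMM-scaled library total) than in wild type libraries (202 ± 41 CPM), and Dlx5 counts were 62.6 ± 5.1 CPM in libraries labelled Dlx5 homozygous and 69.4 ± 6.8 CPM in wild type libraries (SD, n = 4 each). Counts over a whole gene need not fall when part of it is lost, so these values do not check the labels. All 10 arch mesenchyme markers, Prrx1, Twist1 and Hand2 among them, were detected in every library, with a sum of 1442 to 1896 CPM. In Kat6a homozygous against wild type libraries 3 of the 10 were called lower in edgeR, as 1.06% of all genes were. Their median log2 fold change there was -0.17. In each of the other comparisons with wild type 0 of the 10 were called. Neuron and glia markers summed to 60.7 to 287 CPM in Kat6a homozygous, 150 to 306 CPM in double heterozygous, 54.4 to 74.4 CPM in Dlx5 homozygous, 59.7 to 507 CPM in Kat6a heterozygous, 84.3 to 370 CPM in Dlx5 heterozygous and 68.4 to 438 CPM in wild type libraries. In whole arches, fewer cells of a type and less RNA per cell cannot be told apart.

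Per length, in TPM (transcript counts per length, scaled to a fixed total per library and computed from the counts and the deposited gene lengths), the deacetylases were led by class I. Hdac2, a catalytic subunit of the Sin3, NuRD and CoREST corepressors, had the highest level of all 39 genes, with 423.7 TPM on average over the 24 libraries and a range of 365 to 475 TPM. Its close relative Hdac1 averaged 101 TPM, although its count is uncertain, since 58.7% of the 50-base words of its transcript also occur in transcripts of other genes. Hdac3, the catalytic subunit of the NCoR and SMRT corepressors, averaged 201 TPM, and Hdac8, a cohesin deacetylase, 25.5 TPM. Class I made up 78.3% ± 0.4 of the summed TPM of the 11 zinc-dependent deacetylase genes in Kat6a homozygous libraries and 78.0% ± 1.2 in wild type libraries (SD, n = 4 each), and the means of the other 4 groups lay between 76.9% and 78.7%. The summed level was 962 ± 30 TPM in Kat6a homozygous, 978 ± 37 TPM in double heterozygous, 973 ± 9.1 TPM in Dlx5 homozygous, 972 ± 26 TPM in Kat6a heterozygous, 950 ± 40 TPM in Dlx5 heterozygous and 958 ± 35 TPM in wild type libraries (SD, n = 4 each), so the group means differed by about as much as libraries of 1 group.

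The class IIa deacetylases, which shuttle between cytoplasm and nucleus and repress MEF2 targets, were lower. Hdac7 averaged 54.8 TPM, Hdac5 40.6 TPM, Hdac4 18.2 TPM and Hdac9 1.49 TPM, the lowest level of the 39. Among class IIb genes, Hdac6, a cytoplasmic tubulin deacetylase, averaged 59.2 TPM and Hdac10, a polyamine deacetylase, 11.1 TPM. Hdac11, the single class IV gene, averaged 28.3 TPM. Of the sirtuins, the mainly cytoplasmic Sirt2 averaged 68.5 TPM and the nuclear Sirt6, Sirt1 and Sirt7 51.3, 50.2 and 28.0 TPM. The mitochondrial Sirt5, Sirt3 and Sirt4 stood lowest, at 19.8, 17.1 and 9.22 TPM.

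On the writing side, the GNAT-type enzymes were highest. Elp3, the catalytic subunit of Elongator, averaged 172 TPM, Hat1, which acetylates newly made histone H4, 160 TPM, and Kat2a, the catalytic subunit of SAGA and ATAC, 125 TPM. Its paralogue Kat2b averaged only 2.92 TPM, and Kat2a exceeded Kat2b 52.9 ± 7.9 times in Kat6a homozygous, 32.9 ± 5.8 times in Dlx5 heterozygous and 47.8 ± 7.4 times in wild type libraries (ratio of TPM, SD, n = 4 each). The MYST enzymes, the family of KAT6A itself, lay close together: Kat7, of the HBO1 complex, averaged 63.7 TPM, Kat5, of the TIP60 complex, 60.2 TPM and Kat8, of the MSL and NSL complexes, 54.2 TPM. Among the subunits of their complexes, Msl1 averaged 119 TPM and Msl2 65.8 TPM (MSL complex), Epc2 52.1 TPM and Epc1 39.7 TPM (TIP60 complex), and Jade3, Jade1 and Jade2, which direct HBO1 to histone H4, 27.2, 18.9 and 3.27 TPM. Ep300 averaged 61.4 TPM and Crebbp 35.4 TPM, and the ratio of Crebbp to Ep300 was 0.578 ± 0.015 in Kat6a homozygous and 0.572 ± 0.013 in wild type libraries (SD, n = 4 each). The steroid receptor coactivators Ncoa3 and Ncoa1 averaged 29.7 and 6.63 TPM, and Taf1, the largest TFIID subunit, 45.6 TPM. The BET readers Brd2 and Brd3, which bind acetylated histone H4 at active genes, averaged 204 and 195 TPM, and their ranges over libraries overlapped.

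**Figure D1:**
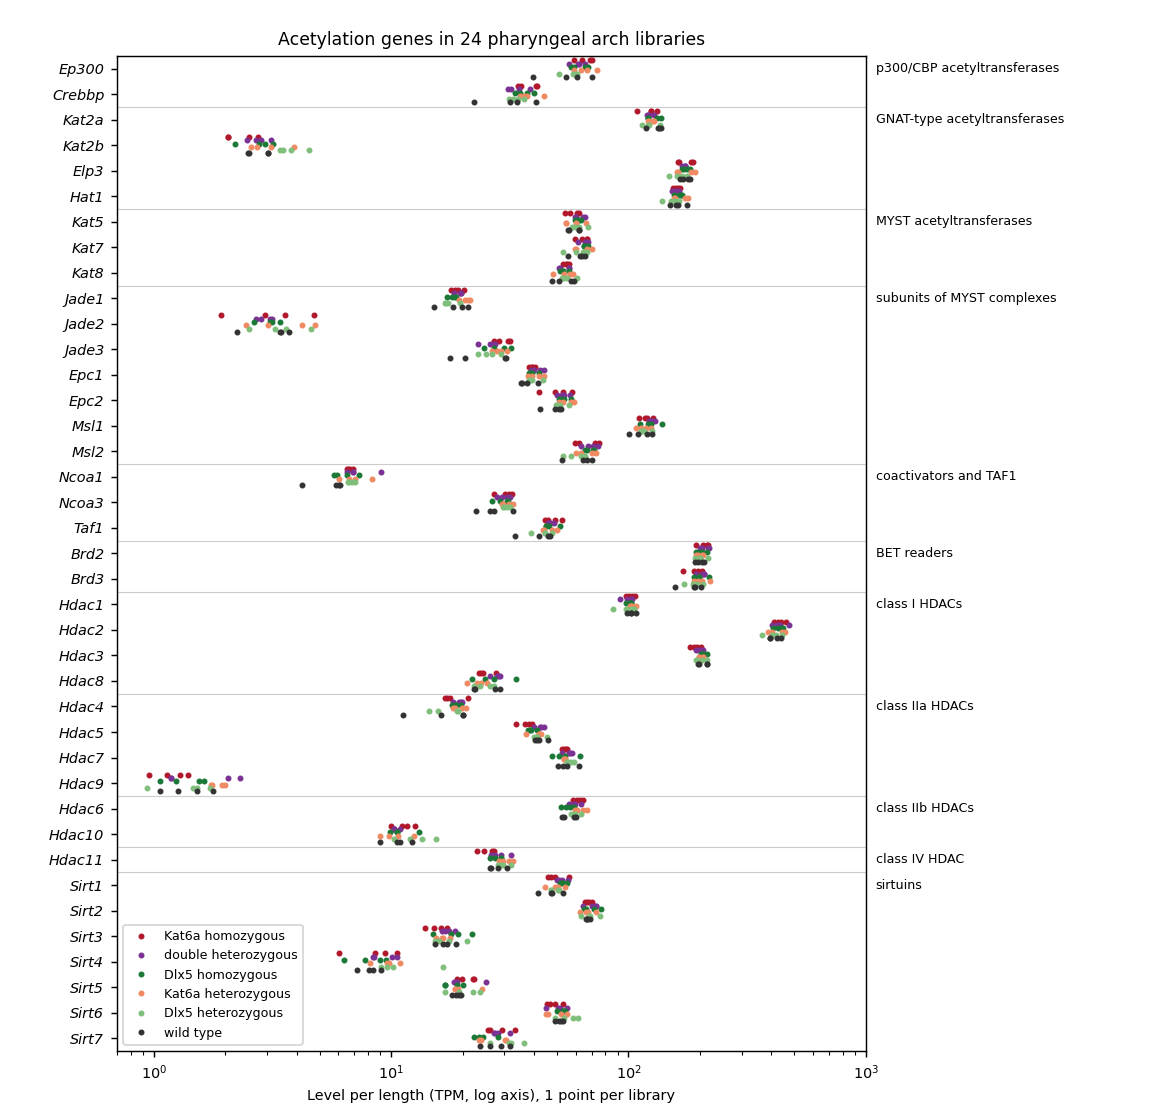
Level per length of each of the 39 genes in each of the 24 libraries (TPM, log axis, 1 point per library, coloured by genotype), grouped by role. Points of the 6 groups overlap for most genes, and levels run from 1.49 TPM (Hdac9) to 423.7 TPM (Hdac2) on average.

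Libraries of 1 group differed little for these genes. With the fitted batch effect removed, the median SD within groups was 0.0973 on the log2 CPM scale for the 39 genes and 0.136 for all genes tested. The 39 genes also had more counts, with a median of 64.3 CPM against 27.3 CPM, so their spread is not set against genes of the same level. Brd2 and Hdac3 varied least of the 39, with SDs of 0.0557 and 0.0523, and Jade2 varied most, with 0.341. The 95% interval of the fold change lay within ±0.5 on the log2 scale for 37 of 39 genes in Kat6a homozygous, 34 in double heterozygous, 32 in Dlx5 homozygous, 35 in Kat6a heterozygous and 33 in Dlx5 heterozygous against wild type libraries. A gene that was not called may still differ by an amount inside its interval.

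In Kat6a homozygous against wild type libraries, the smallest p of the 39 genes was that of Hdac5, which lies on chromosome 11 (102195747 to 102230172, GRCm38). Hdac5 stood at 56.8, 55.4, 54.0 and 51.4 CPM in the Kat6a homozygous libraries, against 61.1, 68.9, 59.4 and 64.4 CPM in wild type libraries. All 4 Kat6a homozygous libraries were below all 4 wild type libraries, a separation in that direction that 3.54% of all genes showed. The log2 fold change was -0.22 with an SE of 0.06 (95% interval -0.34 to -0.10), with an unadjusted p of 0.00109 and an adjusted p of 0.062 in edgeR. With DESeq2 the adjusted p was 0.0344, and with length-corrected offsets in edgeR 0.0306, at log2 fold changes of -0.22 and -0.23, so the call turns on the method while the value hardly moves. Leaving out replicate 2 of the Kat6a homozygous, Kat6a heterozygous, Dlx5 heterozygous and wild type groups, each rich in neuron and glia markers, gave -0.20. Double heterozygous libraries, some of them also rich in these markers, were kept in that fit. In the other mutant groups Hdac5 averaged 61.4 ± 2.4 CPM (double heterozygous), 57.9 ± 2.6 CPM (Dlx5 homozygous), 59.6 ± 3.8 CPM (Kat6a heterozygous) and 61.4 ± 3.4 CPM (Dlx5 heterozygous), against 63.5 ± 4.2 CPM in wild type (SD, n = 4 each).

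Hdac3 stood at 150, 145, 157 and 146 CPM in the Kat6a homozygous libraries, against 151, 170, 167 and 162 CPM in wild type libraries. The groups overlapped, through the low wild type replicate 1, and the log2 fold change was -0.12 with an SE of 0.05 (adjusted p = 0.248 in edgeR). The remaining class I genes had smaller values, -0.03 for Hdac1, 0.05 for Hdac2 and -0.03 for Hdac8. Of the 11 zinc-dependent deacetylase genes 4 had a positive and 7 a negative value. The 4 GNAT-type genes all had negative values, from -0.26 (Kat2b) to -0.02 (Elp3), and the 7 subunits of MYST complexes all had positive ones, from 0.01 (Jade2) to 0.24 (Jade3), where 51.8% of all genes tested were positive. Without wild type replicate 4 the signs of the subunits no longer agreed, with -0.05 for Jade1, -0.10 for Jade2, -0.01 for Epc2 and about 0 for Msl1. None of these genes was called. The MYST enzymes Kat5, Kat7 and Kat8 lay at -0.03, 0.04 and 0.01, with 95% intervals from -0.18 at the lowest to 0.16 at the highest bound.

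**Figure D2:**
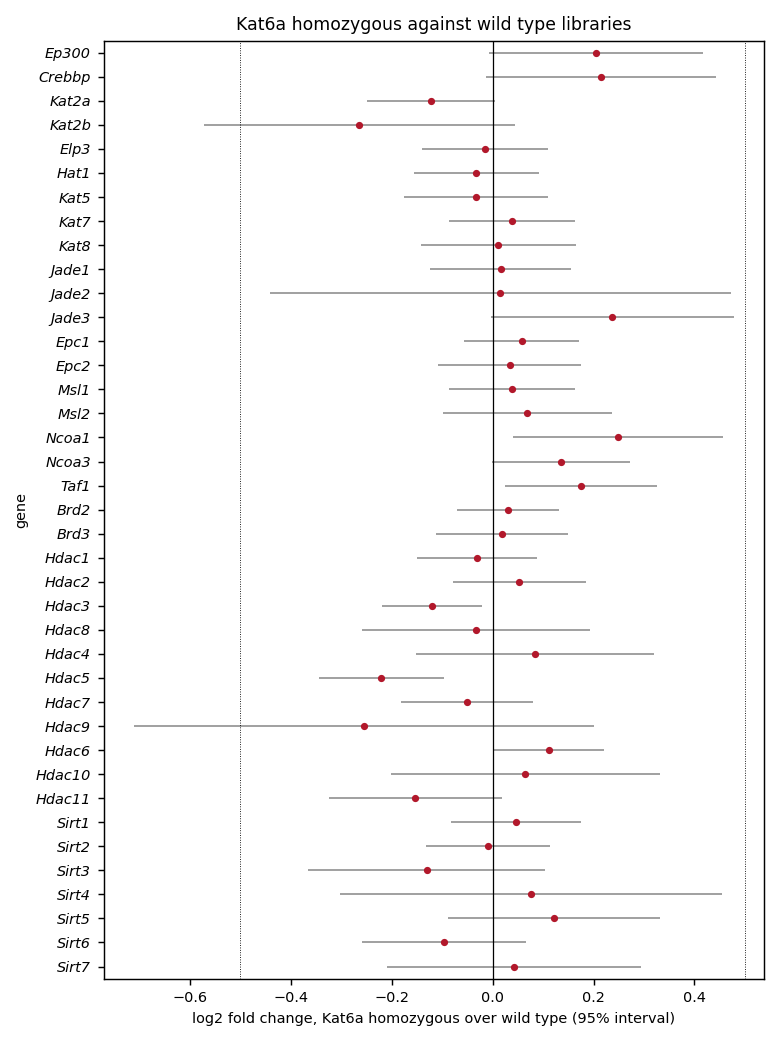
Log2 fold change with its 95% interval for each of the 39 genes, Kat6a homozygous over wild type libraries (n = 4 each), with dotted lines at -0.5 and 0.5. Of the intervals, 37 lie within the dotted lines, and Hdac5, Hdac3, Ncoa1, Taf1 and Hdac6 have intervals that leave out 0 before adjustment for multiple testing.

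Ncoa1, on chromosome 12 (4247362 to 4477206, GRCm38), is a coactivator of nuclear receptors that binds p300 and CBP, and it had a positive value in each of the 5 comparisons. It stood at 19.5, 18.6, 19.0 and 19.1 CPM in Kat6a homozygous libraries and at 25.2, 19.4, 18.5 and 19.2 CPM in double heterozygous libraries. Dlx5 homozygous libraries held 17.2, 20.6, 16.4 and 18.5 CPM, and Kat6a heterozygous ones 17.1, 23.0, 19.8 and 18.8 CPM. The Dlx5 heterozygous libraries stood at 19.4, 18.7, 19.8 and 18.6 CPM, against 17.1, 17.0, 17.1 and 12.6 CPM in wild type libraries. Wild type replicate 4 was thus the lowest of all 24 libraries and double heterozygous replicate 1 the highest. The Kat6a homozygous, double heterozygous and Dlx5 heterozygous libraries all lay above the wild type libraries, a separation shown by 2.87%, 2.82% and 1.88% of all genes in these comparisons, and the other groups overlapped with wild type.

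The log2 fold change of Ncoa1 was 0.49 (SE 0.12, 95% interval 0.24 to 0.74, adjusted p = 0.0701 in edgeR) in double heterozygous, 0.36 (SE 0.14, adjusted p = 0.400) in Dlx5 homozygous and 0.34 (SE 0.10, adjusted p = 0.226) in Kat6a heterozygous libraries. It was 0.30 (SE 0.10, adjusted p = 0.278) in Dlx5 heterozygous and 0.25 (SE 0.10, adjusted p = 0.257) in Kat6a homozygous libraries. The 5 comparisons share the same 4 wild type libraries, so their common sign is not 5 separate observations. Without wild type replicate 4 the value was 0.40, 0.27, 0.25, 0.21 and 0.15 in the same order of groups, and with offsets corrected for gene length it was 0.39, 0.29, 0.24, 0.26 and 0.19. Without double heterozygous replicate 1 the double heterozygous value was 0.31. With no batch term the Dlx5 homozygous value was 0.18. Within batch 2 alone, which holds a single double heterozygous library, it was 0.65, and the Kat6a heterozygous and Dlx5 heterozygous values were 0.31 and 0.26. In the double heterozygous comparison DESeq2 and limma voom gave adjusted p values of 0.0290 and 0.0428. Of the 3 coactivator genes, Ncoa3 and Taf1 also had positive values in all 5 comparisons, from 0.14 to 0.16 for Ncoa3 and from 0.04 to 0.18 for Taf1, in both cases over the same wild type libraries.

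By deposited length, wild type replicate 4 was low for most long genes of the set and for some shorter ones. The 10 genes over 5000 bases had a median of -0.32 on the log2 CPM scale in that library relative to the mean of the other 3 wild type libraries, and 9 of the 10 were at their lowest wild type value there. For the 29 shorter genes the median was -0.00 and 8 were lowest there. The genes with a shorter deposited length ranged from -0.65 (Hdac4, 3960 bases) to 0.35 (Hdac10, 2705 bases). Deposited lengths differ from those of the longest annotated coding transcripts in both directions. That transcript has 8100 bases for Hdac4 and 7940 for Hdac9 (4428 deposited), but 3560 for Kat7 (5966 deposited). Which genes count as short thus depends on the length used. Ep300, with a counted length of 8749 bases, stood at 235, 189, 205 and 142 CPM in wild type libraries, and Crebbp, with 7507 bases, at 117, 94.3, 98.1 and 68.7 CPM. Their values against wild type were 0.20 and 0.21 in Kat6a homozygous and 0.19 and 0.20 in Kat6a heterozygous libraries, uncalled in both. Without wild type replicate 4 they were 0.08 and 0.09 in Kat6a homozygous and 0.07 and 0.08 in Kat6a heterozygous libraries. The median of the 39 genes was 0.03, 0.04, 0.09, 0.04 and 0.02 in Kat6a homozygous, double heterozygous, Dlx5 homozygous, Kat6a heterozygous and Dlx5 heterozygous against wild type libraries, and without wild type replicate 4 it was 0.00, 0.04, 0.03, 0.01 and -0.04. Without wild type replicate 1, the deepest library, it was 0.01, 0.03, 0.03, 0.03 and 0.03, so the median moved with either library. The median of all genes tested lay between -0.00 and 0.01 in these comparisons. What sets this library apart was not tested.

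**Figure D3:**
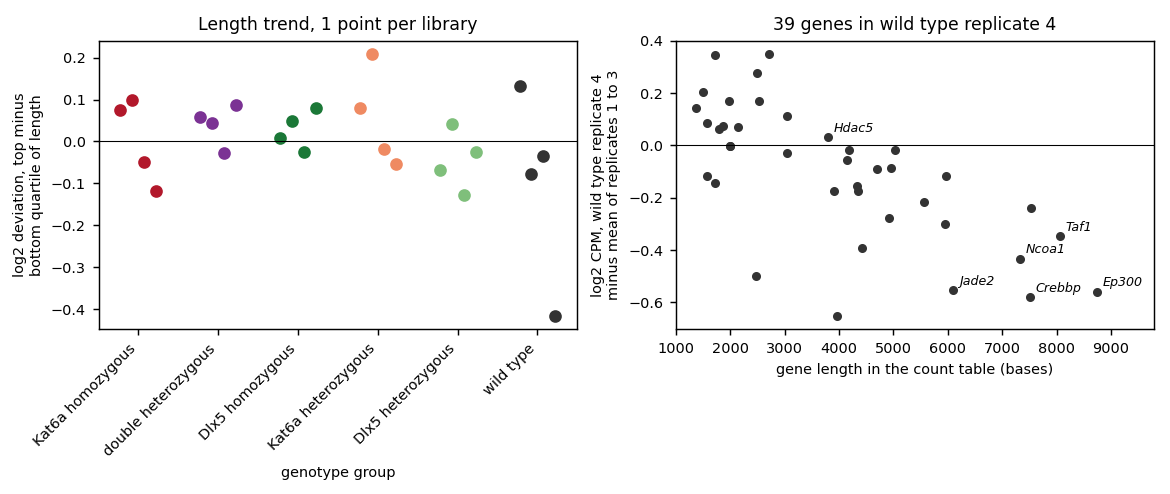
Left, for each of the 24 libraries, the log2 deviation from the mean of all libraries in the top quartile of gene length minus that in the bottom quartile, by genotype. Right, the difference in log2 CPM between wild type replicate 4 and the mean of wild type replicates 1 to 3 for each of the 39 genes, against gene length in bases. Wild type replicate 4 is the lowest point on the left at -0.42, and on the right the genes over 5000 bases lie below 0.

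In double heterozygous libraries the other members with small p were Epc1 and Sirt5. Epc1, a scaffold subunit of the TIP60 complex, stood at 69.9, 67.5, 64.8 and 61.8 CPM, against 59.7, 58.5, 67.4 and 61.0 CPM in wild type libraries, and the groups overlapped. Its log2 fold change was 0.16 (SE 0.07, adjusted p = 0.318 in edgeR), and 0.10 with no batch term. Sirt5, a mitochondrial enzyme that removes succinyl and malonyl groups, stood at 13.0, 9.64, 10.1 and 9.77 CPM in double heterozygous libraries, against 9.86, 9.82, 10.2 and 11.02 CPM in wild type libraries. Replicate 1, the only double heterozygous library of batch 2, was the highest, and the 3 others lay within the range of the wild type libraries or just below it. The log2 fold change was 0.28 (SE 0.12, adjusted p = 0.339 in edgeR), 0.18 without replicate 1 and 0.06 with no batch term. Part of the Sirt5 transcript (36.2% of its 50-base words) also occurs in other genes' transcripts, so its count is uncertain.

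In Dlx5 homozygous libraries 28 of the 39 genes had a positive value, against 49.5% of all genes tested, and the smallest p values after that of Ncoa1 were those of Sirt1 and Epc2. Sirt1, an NAD-dependent deacetylase of histones and p53, stood at 85.0, 79.1, 78.6 and 80.7 CPM, against 70.9, 73.8, 80.6 and 66.4 CPM in wild type libraries. Only wild type replicate 3 reached into the range of the Dlx5 homozygous libraries, and the log2 fold change was 0.22 (SE 0.09, adjusted p = 0.415 in edgeR). Epc2, the paralogue of Epc1, stood at 99.0, 86.5, 86.7 and 90.6 CPM, against 86.9, 84.6, 86.1 and 76.1 CPM in wild type libraries, and its log2 fold change was 0.19 (SE 0.10, adjusted p = 0.516 in edgeR), 0.12 with no batch term and 0.09 with the replicate number as a block. As measured, no member separated the Dlx5 homozygous from the wild type libraries (2.32% of all genes did so upward and 2.29% downward). With the fitted batch effect removed, 5 did so upward (Kat7, Epc2, Ncoa1, Sirt1 and Sirt5, with 6.08% of all genes). Genotype and batch are told apart here only through the 3 groups that span both batches.

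In Kat6a heterozygous libraries Ncoa3, an oestrogen receptor coactivator, stood at 91.3, 92.9, 85.1 and 85.9 CPM, against 93.7, 78.1, 79.2 and 70.7 CPM in wild type libraries. Wild type replicate 1 was the highest of the 8, and the log2 fold change was 0.15 (SE 0.07, adjusted p = 0.393 in edgeR). It was 0.04 after the correction for gene length, 0.09 without wild type replicate 4 and 0.23 without wild type replicate 1, at an adjusted p of 0.0480. Epc2 stood at 95.7, 97.2, 88.4 and 86.0 CPM in Kat6a heterozygous libraries, with wild type values as above, and its log2 fold change was 0.15 (SE 0.07, adjusted p = 0.408 in edgeR). Hdac6 was the single member that separated these groups as measured, with 95.19, 95.03, 106 and 103 CPM in Kat6a heterozygous libraries, against 94.95, 87.7, 94.7 and 88.8 CPM in wild type libraries. The gap between the groups was thus very narrow, and 1.25% of all genes did so in that direction. Hdac6 was picked for description after its values were seen.

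In Dlx5 heterozygous libraries Kat2b, on chromosome 17 (53566774 to 53672721, GRCm38), had the smallest p. Kat2b, also called PCAF, stood at 6.89, 6.33, 8.19 and 6.21 CPM, against 5.45, 4.66, 5.53 and 4.88 CPM in wild type libraries, and all 4 Dlx5 heterozygous libraries lay above all 4 wild type libraries (1.88% of all genes did so). Its log2 fold change was 0.45 (SE 0.15, adjusted p = 0.263 in edgeR), and 0.47 within batch 2 alone. In Kat6a homozygous libraries Kat2b stood at 4.53, 3.73, 4.995 and 3.88 CPM and in double heterozygous libraries at 5.57, 4.43, 4.91 and 5.05 CPM, so the double heterozygous libraries overlapped with wild type. Sirt4, a mitochondrial enzyme that acts on glutamate and leucine metabolism, stood at 6.70, 6.24, 11.4 and 7.11 CPM in Dlx5 heterozygous libraries, against 4.95, 5.97, 6.31 and 5.97 CPM in wild type libraries. Replicate 3 was far above the rest, and the log2 fold change of 0.48 (SE 0.19, adjusted p = 0.321 in edgeR) was 0.22 without it.

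**Figure D4:**
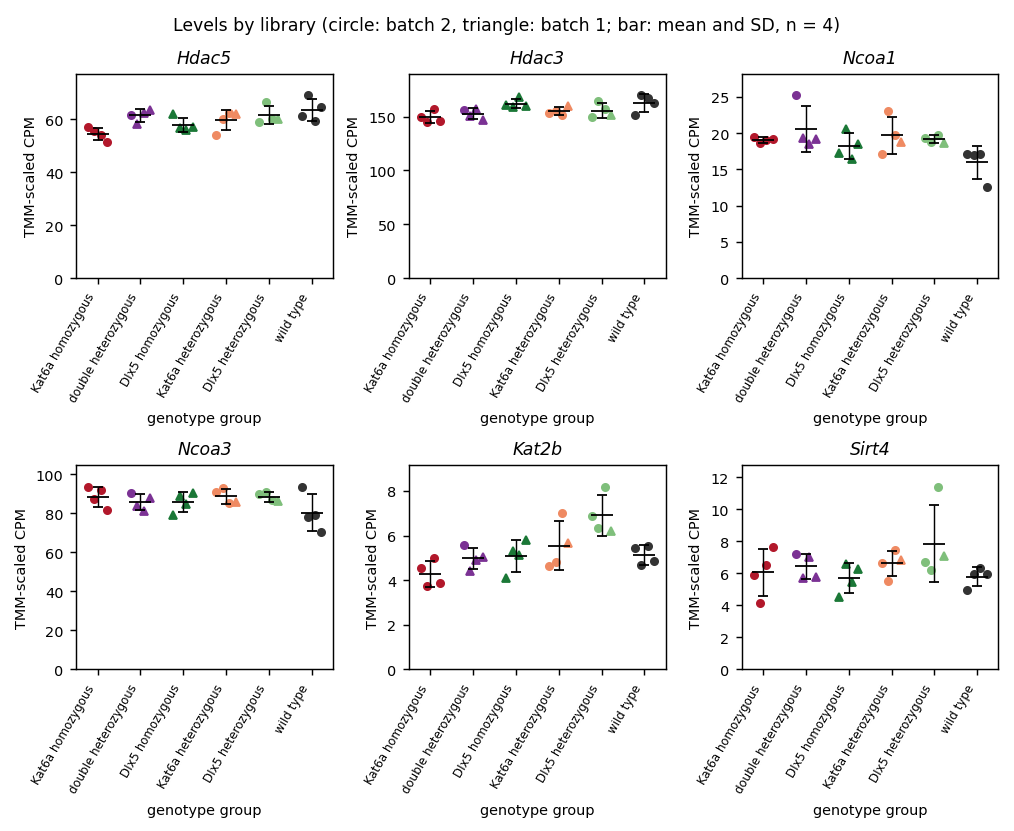
Levels of 6 genes in each library (TMM-scaled CPM, circles for batch 2 and triangles for batch 1, bars for mean and SD, n = 4), by genotype. For Hdac5 the Kat6a homozygous libraries, at 51.4 to 56.8 CPM, lie below all wild type libraries, wild type replicate 4 stands apart for Ncoa1 at 12.6 CPM, and Dlx5 heterozygous replicate 3 stands apart for Sirt4 at 11.4 CPM.

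Further comparisons of the design gave no call either. For the non-additive part of the double heterozygous genotype (its difference from wild type beyond the sum of both single heterozygous differences) 0 of 39 genes were called in edgeR, where 0.00689% of all genes were, and the smallest p was that of Kat2b, with a value of -0.54 (SE 0.21, adjusted p = 0.877). Between Kat6a homozygous and Kat6a heterozygous libraries 0 of 39 were called, where 0.641% of all genes were. Hdac9, a class IIa gene at the lower end of the counts, stood there at 2.19, 2.37, 1.64 and 2.03 CPM in Kat6a homozygous libraries, against 3.41, 3.24, 2.95 and 3.02 CPM in Kat6a heterozygous libraries, and its log2 fold change was -0.71 (SE 0.23, adjusted p = 0.186 in edgeR). Hdac11 stood at 23.6, 22.0, 26.2 and 26.5 CPM in Kat6a homozygous libraries, against 28.3, 26.8, 31.0 and 30.3 CPM in Kat6a heterozygous libraries, with -0.24 (SE 0.09, adjusted p = 0.270 in edgeR). Both separated the 2 groups downward, as 2.94% of all genes did, and both were picked for description after their values were seen. Hdac11 shares 22.4% of its exon bases with Gm44002 on the opposite strand. Between the batches 0 of 39 were called, where 0.0345% of all genes were, and Sirt5 had the smallest p, with a value of -0.30 in batch 1 over batch 2 (adjusted p = 0.489 in edgeR). In the test for any difference among the 6 genotypes 0 of 39 were called, where 1.39% of all genes were, and Kat2b had the smallest adjusted p, 0.109 in edgeR, followed by Ncoa1 with 0.186 and Hdac5 with 0.222.

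Before adjustment, the share of members with p under 0.05 lay near that of all genes or below it. In edgeR 5 of the 39 (12.8%) did so in Kat6a homozygous against wild type libraries, against 13.6% of all genes, 3 (7.69%) against 13% in double heterozygous and 2 (5.13%) against 9.97% in Dlx5 homozygous libraries. In Kat6a heterozygous libraries 4 (10.3%) did so against 11.4% of all genes, and in Dlx5 heterozygous libraries 4 (10.3%) against 11.3%. For the non-additive part 1 member (2.56%) did so against 5.4% of all genes, and between Kat6a homozygous and Kat6a heterozygous libraries 4 (10.3%) against 9.92%. Between the batches 2 (5.13%) did so against 6.51%, and in the test over all genotypes 4 (10.3%) against 15.1%. By DESeq2 1 member was called in Kat6a homozygous libraries (Hdac5, with 2.11% of all genes) and 1 in double heterozygous libraries (Ncoa1, with 1.33%), and by limma voom 1 in double heterozygous libraries (Ncoa1, with 0.91%), while both called 0 members in the other comparisons.

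**Figure D5:**
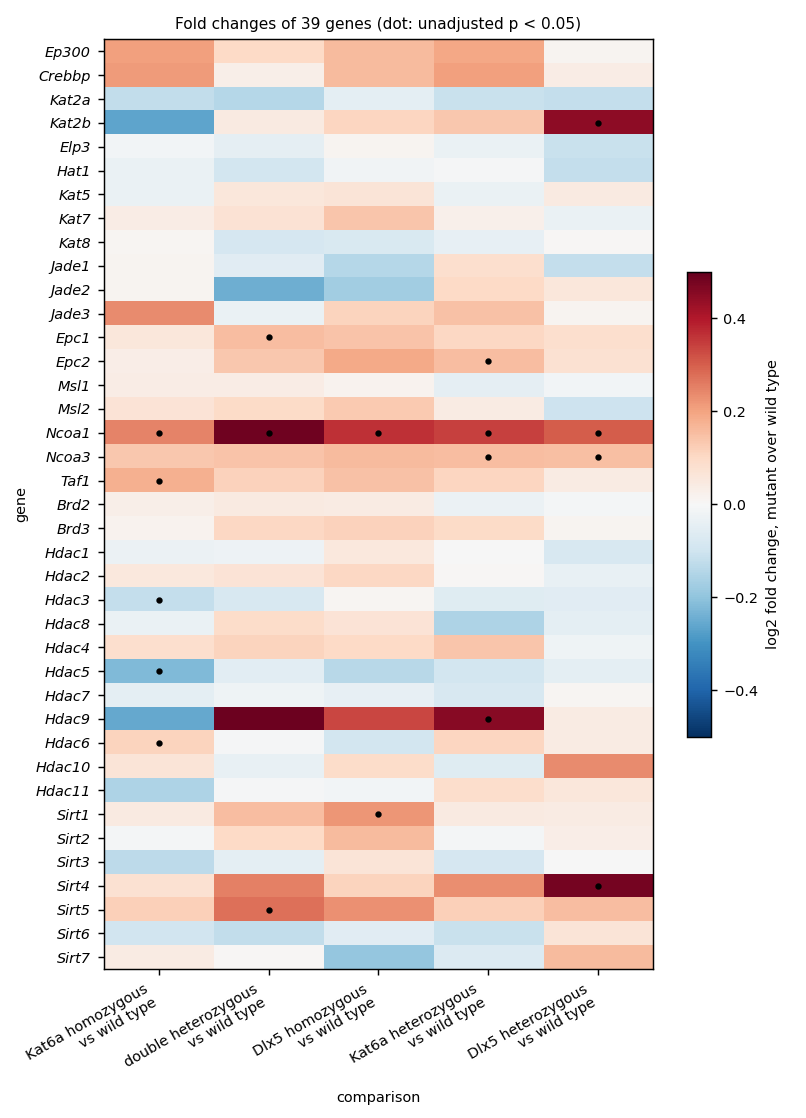
Log2 fold change of each of the 39 genes (rows, by role) in the 5 mutant groups over wild type (columns), from -0.5 in blue to 0.5 in red, with a dot where the unadjusted p in edgeR is under 0.05. Ncoa1 is the single row with a dot in every column, and all columns share the same 4 wild type libraries.

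The partners of these genes gave the same count. Of 38 further subunits of acetyltransferase complexes (SAGA, ATAC, TIP60, MSL, NSL and Elongator), of 29 subunits of the Sin3, NuRD, CoREST and NCoR corepressors, of 22 other bromodomain and YEATS readers and of 15 tested genes for acetyl-CoA and NAD supply, 0 rose and 0 fell in each of the 5 comparisons with wild type by edgeR. The nearest to the threshold was 1 corepressor subunit in double heterozygous libraries, at an adjusted p of 0.0670. At an unadjusted p under 0.05 in Kat6a homozygous against wild type libraries stood 2 of the 38 acetyltransferase subunits (5.26%), 8 of the 29 corepressor subunits (27.6%), 5 of the 22 readers (22.7%) and 4 of the 15 supply genes (26.7%), against 13.6% of all genes. Their median log2 fold changes there were 0.03, 0.02, 0.05 and 0.09, against 0.01 for all genes tested.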

How the data were processed

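Per the labels' protocols, libraries were made with a stranded mRNA kit of Illumina. Base calling with CASAVA 1.8.2, counting with featureCounts and build mm10 are named in the submitters' processing notes. The aligner, the annotation and the strand setting were not given in the sources used here. Antisense and near-identical genes may thus share reads. Raw counts for each gene, with gene lengths, were deposited by the authors as a series table, with 24 single files identical to its columns. Of 27179 entries, 568 without identifier (0.182% to 0.259% of a library's counts) were left out. The remaining 26611 identifiers were matched to symbols where a symbol was given (25275). RefSeq on GRCm38 gave the coordinates.

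Counts were tested mainly with edgeR 4.0.16 (R 4.3.3): filterByExpr by group (14506 genes), TMM, and a robust quasi-likelihood fit of all 24 libraries with a mean for each of the 6 groups plus batch, which left 17 residual degrees of freedom (common BCV, the biological coefficient of variation, 0.0896). Adjusted p values are Benjamini-Hochberg over all genes tested. The design text calls the replicates biological, without saying whether each was 1 embryo, and p values measure the spread between them. CPM is TMM-scaled, and log2 CPM uses a prior count of 2. TPM is per deposited length and has no test. Alternatives were DESeq2 1.42.0, limma 3.58.1 voom with quality weights, RLE scaling, a stricter filter (1 CPM in 12 libraries) or none, a replicate block, a fit of the groups compared alone, batch 2 alone, the model without batch, a neuron and glia score as covariate, neuron-rich libraries left out, length-corrected offsets, and each library left out in turn. The neuron-rich libraries left out were replicate 2 of the Kat6a homozygous, Kat6a heterozygous, Dlx5 heterozygous and wild type groups. Double heterozygous replicates 3 and 4 were kept, although their scores were 1.51 and 1.54, against 1.39 in Kat6a homozygous replicate 2. The scripts were tested on simulated counts.

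The members and lists were chosen with earlier results of these data known. All 39 members are named with a level. Values by library and full statistics are given for the 3 members with the smallest p in each comparison with wild type and for any called, and genes of the partner lists are named only if called. Hdac6, Hdac9, Hdac11, Ep300 and Crebbp were described by library after their values were seen. The labels give no origin for replicate numbers. For Kat6a heterozygous and wild type libraries each of the 4 pairs with a shared number correlated above 0.1 in its deviations from the group means (0.151 to 0.656). Kat6a heterozygous replicate 3, however, correlated better with another wild type replicate (0.269) than with wild type replicate 3 (0.194). Replicate 4 was of batch 1 in Kat6a heterozygous and of batch 2 in wild type libraries. A pairing of these 2 groups by number is possible but not shown. The replicate block was fitted as an alternative. The chi-square of replicate pairs was 3.04 to 23.3 times its degrees of freedom, so no library was taken for a duplicate.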

Additional observations from a re-analysis of the deposited data

Results flagged for a closer look

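Single libraries stood far from the other 3 of their group for a described gene. Of 89 sets of 4 libraries examined, 7 held such a library, where the limit used is passed by about 1 in 20 independent sets. These sets share libraries, and the genes examined in every group were those picked for a small p. The 7 therefore cannot be set against that rate. Of the 7 libraries, 4 lower a fold change given above when left out. Ncoa1 was 25.2 CPM in double heterozygous replicate 1 against 18.5 to 19.4 CPM in the other double heterozygous libraries, Ncoa1 was 12.6 CPM in wild type replicate 4 against 17.0 to 17.1 CPM in the other wild type libraries, Sirt4 was 11.4 CPM in Dlx5 heterozygous replicate 3 against 6.24 to 7.11 CPM, and Sirt5 was 13.0 CPM in double heterozygous replicate 1 against 9.64 to 10.1 CPM. Sirt5 was also 12.4 CPM in Kat6a heterozygous replicate 2 against 9.72 to 10.1 CPM. Epc1 was 70.1 CPM in Dlx5 heterozygous replicate 3 against 62.0 to 63.0 CPM. Sirt1 was 84.4 CPM in Kat6a homozygous replicate 2 against 71.5 to 73.1 CPM. Double heterozygous replicate 1 is the only library of its group in batch 2, and Kat6a heterozygous and Kat6a homozygous replicates 2 had the highest neuron and glia marker sums of their groups. The part of either in these values was not tested.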

How the results depend on the processing

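The count of members called, 0 in every comparison, was recomputed under up to 36 alternatives each. Where DESeq2 or limma voom called a member, the share of all genes called is given above. For the other alternatives that share is not given, so their counts cannot be read as particular to the members. In Kat6a homozygous against wild type libraries it became 1 (Hdac5) with the stricter filter, with DESeq2 and with length-corrected offsets, and ranged from 0 to 2 when single libraries were left out (2, Hdac5 and Ncoa3, without wild type replicate 1, and 1, Hdac5, without wild type replicate 3, Kat6a heterozygous replicate 1 or 3, or Dlx5 heterozygous replicate 2). In double heterozygous against wild type libraries it became 1 (Ncoa1) with DESeq2 and with limma voom, and ranged from 0 to 1 without single libraries (1 without wild type replicate 1 or Kat6a heterozygous replicate 1). In Kat6a heterozygous against wild type libraries it ranged from 0 to 1 (Ncoa3, without wild type replicate 1). It stayed at 0 under all alternatives run for the 6 other comparisons, and no fold change of the 3 members with the smallest p in each comparison with wild type changed sign. Hdac5 kept log2 fold changes of -0.25 to -0.19 with adjusted p values of 0.0306 to 0.274, and Ncoa1 in double heterozygous libraries 0.31 to 0.65 with 0.0290 to 0.702. The causes were not tested.

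With the replicate block 0 members were called in every comparison, so pairing by number changed no call. Same-numbered deviations correlated at 0.0949 to 0.569 in Kat6a homozygous and -0.256 to 0.0134 in double heterozygous against wild type libraries. They correlated at -0.105 to 0.137 in Dlx5 homozygous and -0.18 to 0.504 in Dlx5 heterozygous against wild type libraries. Between Kat6a homozygous and Kat6a heterozygous libraries they correlated at 0.0673 to 0.617. At least 1 pair in each comparison fell short of 0.1, and a pairing by number is not shown there either. In the last of these, replicates 1 to 3 correlated best with their own number, a hint from the data and not from the design. Batch 2 alone and only the groups compared were not run for Dlx5 homozygous libraries, which share no batch with wild type, nor for the test over all genotypes. Depth limits the genes with few counts most: Hdac9 had as few as 19 counts in a library, and its interval in double heterozygous libraries reached 1.03.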
